A study of Homo sapiens with 12 samples.

Results

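The mitochondrial ribosomal protein genes were examined in RNA-seq libraries of KGN and COV434 cells, human lines used as models of granulosa cell tumours of the ovary, with and without 77-39, a SIRT3 inhibitor. Members were all protein-coding genes of the deposited table whose symbol was MRPL or MRPS followed by a number. This gave 78 of 58735 genes, 49 for the large subunit (MRPL) and 29 for the small subunit (MRPS). Each line had 3 untreated libraries and 3 libraries of cells given 77-39 for 72 h at a labelled 10 μm/ml, a unit that could be read in more than one way. The labels of the untreated libraries carried the same dose text, so treatment was taken from the sample titles. No vehicle was named for the untreated cells, and nothing stated that replicates came from separate cultures, so p-values measure only the spread between these libraries.

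Mitochondria translate their own mRNAs, which encode core subunits of the respiratory chain and of ATP synthase, on a ribosome that differs from that of the cytosol. Its rRNAs come from mitochondrial DNA, whereas every one of its proteins is encoded in the nucleus, made in the cytosol and imported. Some of these proteins have counterparts in bacterial ribosomes and others were added during mitochondrial evolution. The names do not always follow the place of a protein: MRPS30 and MRPS18A sit in the large subunit, and MRPS36 is now regarded as a component of the oxoglutarate dehydrogenase complex. SIRT3, the target of 77-39, is the main deacetylase of the mitochondrial matrix.

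The labels of the lines were checked first, and marker genes were divided. FOXL2, the granulosa transcription factor, had 2 reads in all 6 libraries labelled KGN and 11.5 to 14.0 FPKM (fragments per kilobase of gene, scaled to library depth) in those labelled COV434. SMARCA2 and SMARCA4, chromatin remodelling ATPases, were at no more than 0.009 FPKM and at 2.25 to 2.60 FPKM in the libraries labelled KGN, against 4.51 to 6.48 and 6.51 to 12.6 FPKM in those labelled COV434. The epithelial keratins KRT8 and KRT18 were at 137 to 264 and 161 to 223 FPKM in the libraries labelled COV434. In those labelled KGN they were at no more than 0.063 FPKM. KRT19 was at 33.8 to 43.3 FPKM in the libraries labelled COV434 and had 0 reads in those labelled KGN. The other epithelial markers, EPCAM and CDH1, were nearly absent from both lines, at no more than 0.047 and 0.226 FPKM in any library. WT1, a transcription factor of granulosa cells among other types, went with the label KGN, at 45.9 to 61.4 FPKM there and with 0 reads in the libraries labelled COV434. The 11 granulosa markers summed to 51.7 to 67.6 FPKM in the libraries labelled KGN and to 29.4 to 34.3 FPKM in those labelled COV434. WT1 made up most of the sum in the libraries labelled KGN, with an untreated mean of 59.7 FPKM. AMH, INHA and INHBB, like FOXL2, were higher in those labelled COV434. Their untreated means were 4.55, 1.06 and 0.006 FPKM in KGN and 8.24, 4.75 and 6.95 FPKM in COV434. The other markers of the list were at no more than 0.161 FPKM in every library. FSHR had no read and NR5A1 at most 1 read in either line. Whether the labels of the lines were exchanged was not settled by these values, and this bears on every value given for a single line. The lines are therefore called by their labels throughout, and a direction between them is a direction between labels. SIRT3 was at 4.29 ± 0.067 FPKM in untreated and 4.04 ± 0.468 FPKM in treated libraries labelled KGN (SD, n = 3), and at 3.82 ± 0.432 and 4.38 ± 0.88 FPKM in those labelled COV434, which for an inhibitor of the enzyme does not check the treatment. Libraries held 15547851 to 18280415 reads.

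Nearly all members were expressed in both lines. A level of at least 1 FPKM in every library was reached by 74 of 78, the exceptions being MRPL38, MRPL46, MRPL53 and MRPS24. The median of the untreated mean levels was 17.2 FPKM for large and 13.0 FPKM for small subunit genes in the libraries labelled KGN, and 21.6 and 16.1 FPKM in those labelled COV434. FPKM is divided by the gene length of the deposited table, which runs from 959 to 16393 bases among members. Whether this length matches the mRNA made in these cells was not tested. Levels and ranks compared between genes are therefore approximate. Members were short, with a median gene length of 2539 bases against 4446 bases for genes of at least 1 FPKM on average.

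MRPS34, a small subunit protein without a bacterial counterpart, was the highest member in both lines. Its gene lies at chr16:1771890-1773155 on the minus strand (GRCh38, GENCODE 29) and overlapped no other gene. Untreated levels were 101, 96.7 and 96.4 FPKM in the libraries labelled KGN and 173, 239 and 188 FPKM in those labelled COV434. Among the libraries labelled KGN, MRPL15, MRPL37 and MRPL3 followed, with means of 53.4 ± 2.81, 53.1 ± 2.87 and 42.0 FPKM (n = 3), so that MRPL15 and MRPL37 did not differ beyond their spread. In those labelled COV434, MRPL37, MRPL14 and MRPS18B followed, with means of 169.9 ± 15.9, 107 and 95.2 ± 6.17 FPKM. MRPS34 and MRPL37 overlapped there, since the highest MRPL37 library had 186 FPKM and the lowest MRPS34 library 173 FPKM.

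The lowest members were the same in both lines. MRPS24 was close to the detection limit in the libraries labelled KGN, with 1 to 7 reads, and had 12 to 44 reads in those labelled COV434. It shares its exons with the read-through gene URGCP-MRPS24 on the same strand at chr7:43866558-43869893 (GRCh38), and that gene held 0 to 2 reads. Reads that fit both genes may have been left uncounted, and how the counter handled them is not given in the sources used here. MRPL38, MRPL46 and MRPS18C came next, at 1.53 ± 0.23, 1.30 and 2.22 FPKM in the untreated libraries labelled KGN and 0.76 ± 0.18, 1.21 and 1.83 FPKM in those labelled COV434. Each of MRPS24, MRPL38 and MRPL46 overlaps a read-through or second gene model on its own strand. MRPS24 fell below the filter of a mean of at least 1 FPKM in every comparison and MRPL38 in the comparison within COV434, so neither was tested there.

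**Figure D1:**
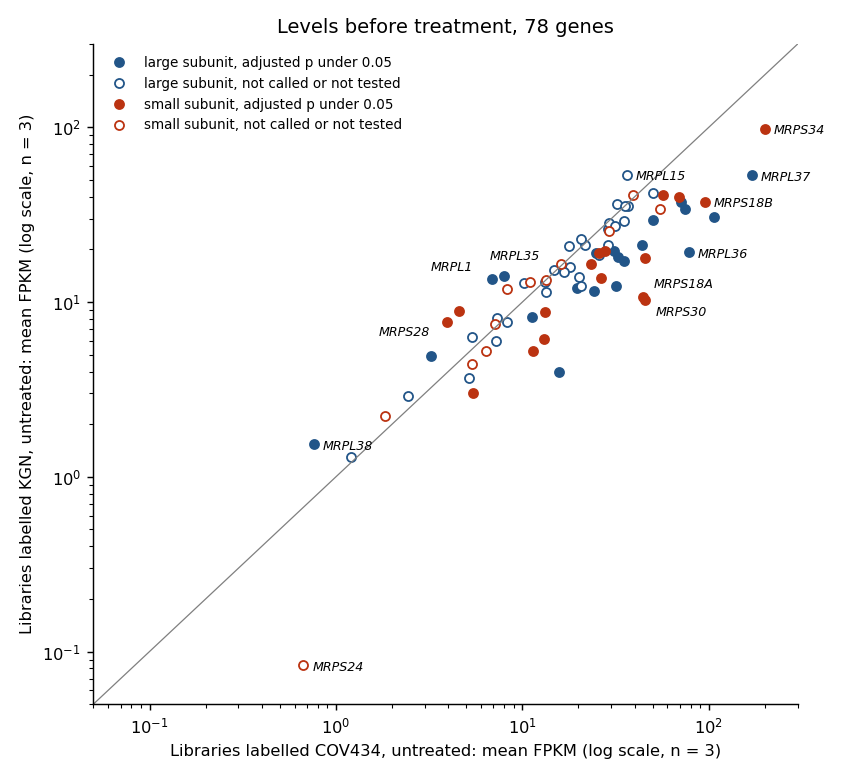
Mean FPKM of the 78 genes in the untreated libraries labelled COV434 (horizontal axis) and KGN (vertical axis), both on log scales, n = 3 libraries each, with filled points for an adjusted p under 0.05 between the lines and a grey line of equal levels. MRPS34 lies at the top right in both lines, MRPS24 at the bottom, and MRPS30, MRPS18A and MRPL36 lie well below the line of equal levels.

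To examine how 77-39 changed these mRNAs, treated and untreated libraries of each line were compared. In the libraries labelled KGN the summed level of the members was lower with 77-39. The large subunit genes summed to 1004, 923 and 910 FPKM in the untreated and 800, 841 and 883 FPKM in the treated libraries. The small subunit genes summed to 557, 534 and 526 FPKM against 446, 474 and 504 FPKM. For both subunits every treated library lay below every untreated one, with means lower by 11.0% and 11.9%. An exact permutation test of 3 against 3 libraries cannot give a p below 0.1, so the sums carry no test. For COV434 the large subunit sums were 1142, 1690 and 1469 FPKM untreated and 1157, 1640 and 1639 FPKM treated. The corresponding small subunit sums were 767, 1036 and 913 FPKM and 765, 967 and 950 FPKM, and the groups overlapped for both subunits. A sum over FPKM cannot tell fewer cells with these mRNAs from less of them per cell.

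**Figure D2:**
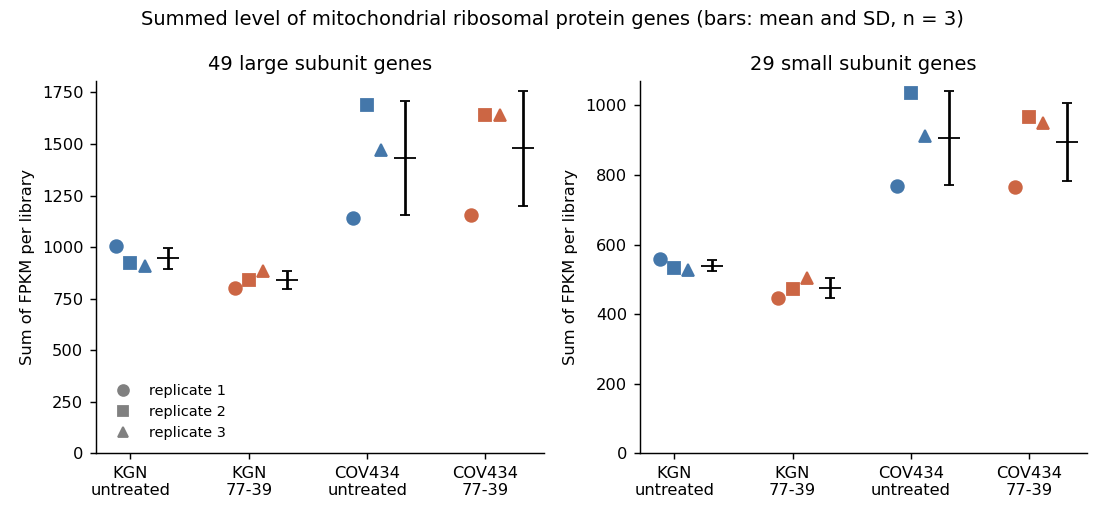
Summed FPKM of the 49 large (left) and 29 small subunit genes (right) in each library, by line label and treatment, with marker shapes for replicate numbers and bars for the mean and SD (n = 3). Treated libraries labelled KGN lie below the untreated ones, whereas replicate 1 is the lowest library of both COV434 groups.

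By gene, 22 of the 77 members tested in the libraries labelled KGN were downregulated and 2 were upregulated with 77-39 (limma on log2(FPKM + 1), adjusted p < 0.05, Benjamini-Hochberg over 12671 genes). Over all genes tested, 16.4% were called lower and 17.6% higher, against 28.6% and 2.6% of the members. The large subunit had 15 lower and 0 higher among 49 genes, and the small subunit 7 lower and 2 higher among 28. The median log2 change was -0.18 for large and -0.11 for small subunit genes, with a median of 0.01 over all genes tested. At an unadjusted p < 0.05, the threshold used in the study, 30 members were lower and 4 higher, where 21.6% and 23.7% of all genes were. Groups did not overlap for 30 members that were lower and 4 that were higher, and for 23.4% and 26.3% of all genes in these directions. The mean FPKM of the members called lower fell by 11.5% at the least (MRPS14) and fell by 37.8% at the most (MRPS34).

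MRPS34 had the smallest p among the members that fell. Its level was 101, 96.7 and 96.4 FPKM in untreated and 51.6, 62.4 and 68.8 FPKM in treated libraries labelled KGN, a log2 change of -0.69 ± 0.10 (SE, adjusted p = 0.00311). The groups were far apart, with the lowest untreated library above the highest treated one. MRPL4, which lines the tunnel through which the new peptide leaves, fell from 12.1, 13.1 and 13.4 FPKM to 8.83, 8.58 and 10.2 FPKM (log2 change -0.44 ± 0.07, adjusted p = 0.00487). MRPL49, a large subunit protein without a bacterial counterpart, fell from 27.2, 29.9 and 28.2 FPKM to 20.7, 21.2 and 23.2 FPKM (log2 change -0.37 ± 0.06, adjusted p = 0.00422). Its gene overlaps FAU and SYVN1 on the opposite strand, and the strand setting of the counting is not given in the sources used here, so reads of these genes may not be told apart. This limit is common, since 38 of the 78 members overlap a coding gene, MRPS18A and MRPS18B among them. MRPL28 overlaps TMEM8A on its own strand. In the libraries labelled KGN TMEM8A held 1748 to 2298 reads and MRPL28 1056 to 1583.

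The S18 protein has 3 paralogues, whose changes were not tested against each other. MRPS18B, a protein of the small subunit, fell from 38.7, 38.0 and 36.0 FPKM to 28.3, 28.4 and 31.3 FPKM (log2 change -0.34 ± 0.06, adjusted p = 0.00446). MRPS18A, which sits in the large subunit, fell from 11.3, 10.7 and 10.1 FPKM to 7.30, 7.96 and 8.94 FPKM (log2 change -0.37 ± 0.08, adjusted p = 0.0109). In both genes the treated and untreated libraries were separate. The third paralogue, MRPS18C, had a log2 change of -0.11 ± 0.09 and was not called (adjusted p = 0.38).

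Of the remaining genes with the smallest p, MRPL28, MRPL15, MRPL35, MRPL16 and MRPS11 have bacterial counterparts, and their mean FPKM fell by 18.7% to 23.2%. MRPL28 fell from a mean of 26.2 ± 0.76 to 20.6 ± 1.73 FPKM, MRPL15 from 53.4 ± 2.81 to 43.4 ± 1.86, MRPL35 from 14.1 ± 0.98 to 10.9 ± 0.64, MRPL16 from 18.0 ± 0.81 to 14.5 ± 0.95 and MRPS11 from 5.28 ± 0.38 to 4.05 ± 0.22 (SD, n = 3, adjusted p of 0.0082 to 0.0107). MRPS28 had the next largest change after MRPS34 among the called members, from 9.05, 7.70 and 6.43 FPKM to 4.73, 5.53 and 5.14 FPKM (log2 change -0.50, adjusted p = 0.0146).

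The members that rose, MRPS15 and MRPS10, both belong to the small subunit and both have bacterial counterparts. MRPS15, an rRNA-binding protein, rose from 20.7, 19.4 and 19.0 FPKM to 26.1, 25.7 and 26.9 FPKM (log2 change 0.40 ± 0.05, adjusted p = 0.00152), the smallest p of all members. MRPS10, in the head of the subunit, rose from 26.1, 25.9 and 24.4 FPKM to 28.9, 29.8 and 29.2 FPKM (log2 change 0.20 ± 0.04, adjusted p = 0.0144). No treated library of either gene reached down to the untreated ones.

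**Figure D3:**
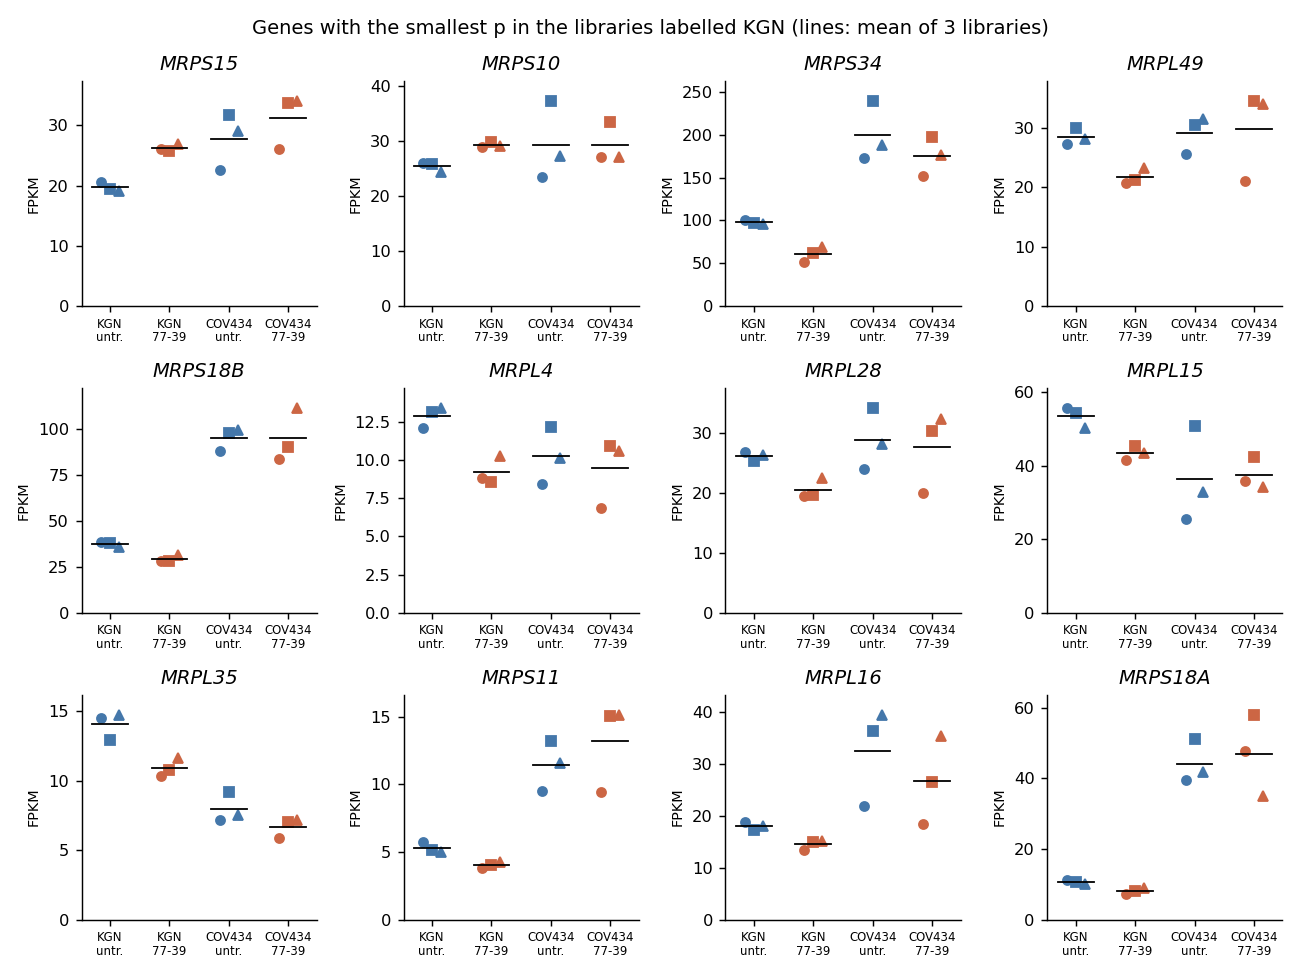
FPKM per library for the 12 genes ranked first by p in KGN, blue untreated and orange 77-39, with marker shapes for replicates 1 (circle), 2 (square) and 3 (triangle) and lines for the mean of 3. In the libraries labelled KGN the groups are apart for every gene shown, and in those labelled COV434 they overlap for all but MRPL35.

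Genes singled out for their role gave a mixed picture in the libraries labelled KGN. MRPL12, the factor-binding stalk protein that also has been reported to bind the mitochondrial RNA polymerase, fell from 18.8, 19.6 and 20.4 FPKM to 15.4, 14.1 and 17.9 FPKM (log2 change -0.30 ± 0.08, adjusted p = 0.0307). MRPL45, which holds the ribosome at the inner membrane by the tunnel exit, was at 29.3 ± 1.08 and 29.6 ± 0.95 FPKM (log2 change 0.01 ± 0.05). MRPL58, a peptidyl-tRNA hydrolase built into the large subunit, was at 21.3 ± 1.90 and 20.6 ± 1.77 FPKM. MRPS12, at the decoding centre, had a log2 change of -0.15 ± 0.08 and MRPL41 one of 0.15 ± 0.10. MRPS30 had a log2 change of 0.07 ± 0.06 and MRPS36 one of -0.34 ± 0.14, and apart from MRPL12 none of these passed the test.

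Sorted by origin, 17 of 46 members with a bacterial counterpart were lower and 2 higher in the libraries labelled KGN, with a median log2 change of -0.18. Of 31 members assigned none, 5 were lower and 0 higher, with a median of -0.07. These counts rest on how each member was assigned, and MRPS28 is among those 5. Over all genes 16.4% were lower, a share that the members without a bacterial counterpart were close to. The gap was widest in the large subunit, where 13 of 30 members with and 2 of 19 members without a bacterial counterpart were lower. A place was assigned to some members only. By place, 0 of 9 proteins of the central protuberance, 2 of 8 around the exit of the peptide tunnel, and 1 of 3 of the factor-binding stalk and its base were lower. Of the 4 tested that were assigned to the head of the small subunit, MRPS7, MRPS9, MRPS10 and MRPS14, 1 was lower. Further proteins of the head may be among the members without an assigned place. These groups are small, and differences between them were not tested.

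Of the 24 calls, 12 held when any 1 library was left out: MRPS34, MRPS18B, MRPS18A, MRPS11, MRPS15, MRPL4, MRPL14, MRPL15, MRPL16, MRPL28, MRPL35 and MRPL49. Without treated replicate 2 the count of calls fell to 14. With all 12 libraries in 1 fit, which takes the wider spread of the COV434 libraries into the error, only MRPS34 was called.

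**Figure D4:**
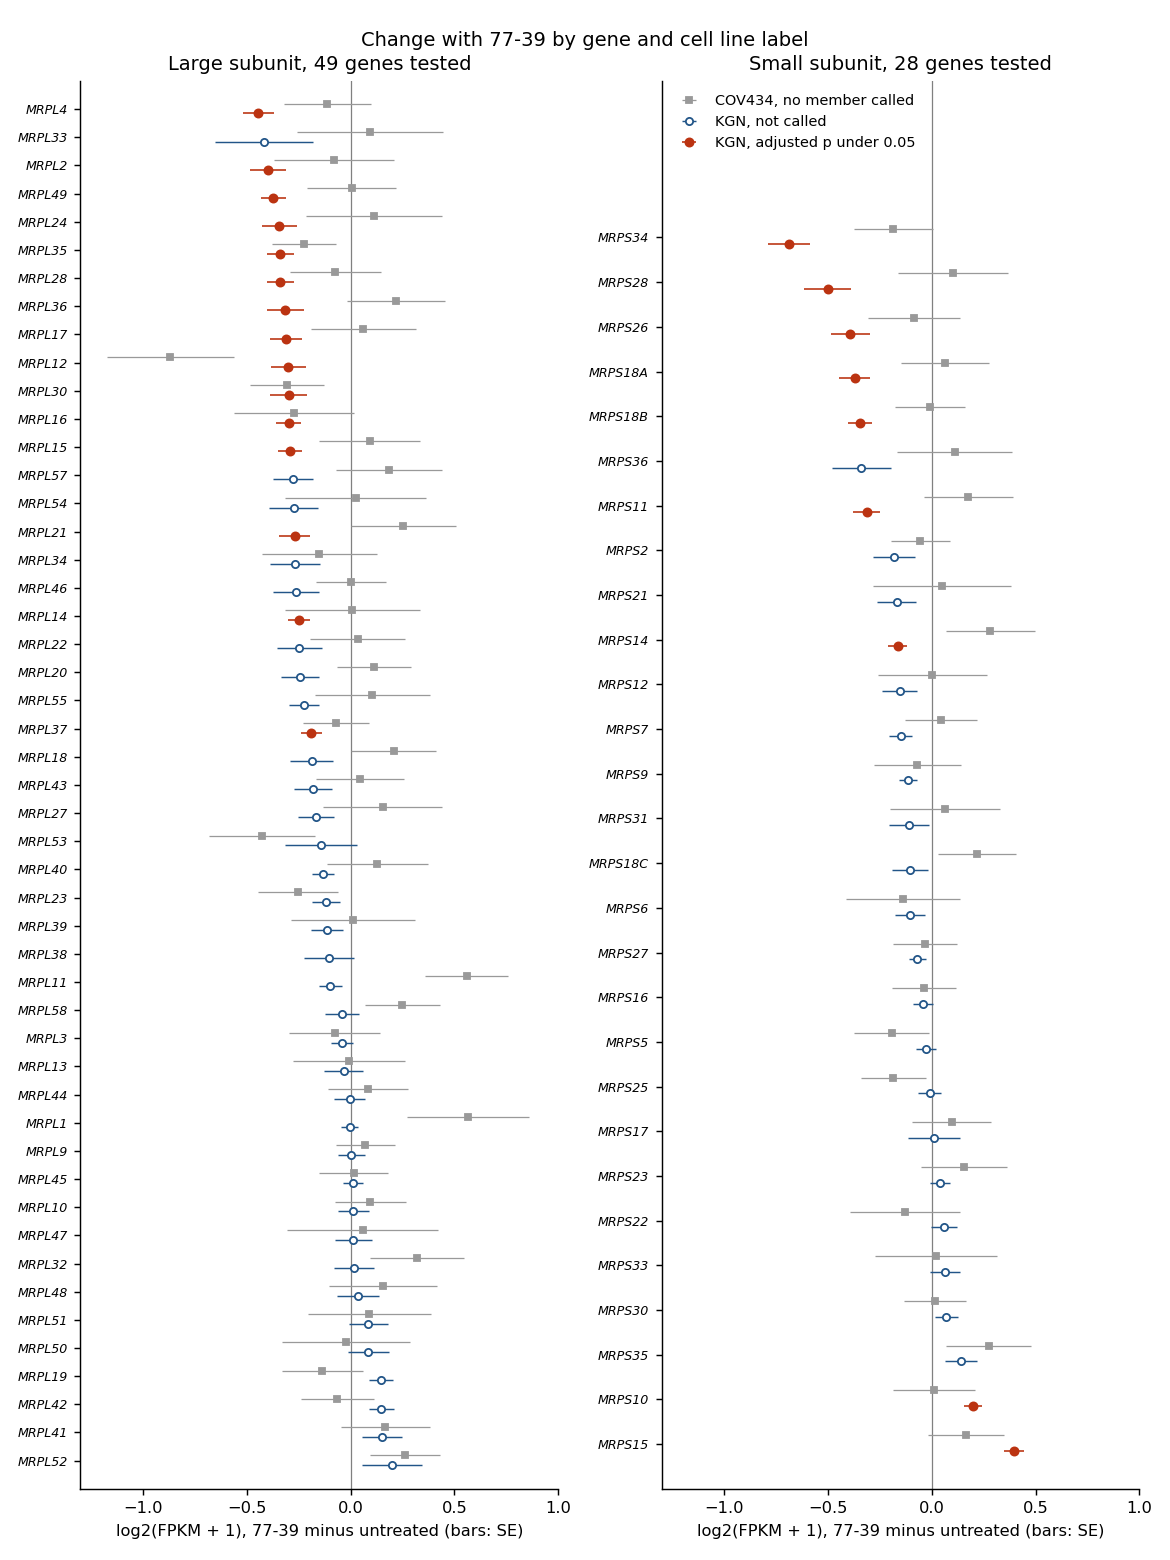
Change of log2(FPKM + 1) with 77-39 for each gene tested, large subunit left and small subunit right, ordered by the change in KGN, with bars for the SE. Filled red points are called in the libraries labelled KGN and open blue points are not, and grey squares are the libraries labelled COV434, whose bars are wider and of which none is called.

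In the libraries labelled COV434 no member was called (0 of 76 tested, limma, smallest adjusted p = 0.461), where 0.0415% of the 12060 genes tested were. At an unadjusted p < 0.05, 1 member was higher and 1 lower, with 3.52% and 4.49% of all genes. The median log2 change was 0.05 for large and 0.02 for small subunit genes. The median SE of a member was 0.21 on the log2 scale in COV434 and 0.08 in KGN, so that changes of the size seen in the libraries labelled KGN would mostly not have been detectable here.

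The members with the smallest p in COV434 were MRPL12, which was lower, and MRPL11, which was higher, and neither was called. MRPL12 forms the stalk that recruits translation factors, and MRPL11 sits at its base. MRPL12 was at 27.8, 35.6 and 29.4 FPKM in untreated and 9.42, 23.9 and 19.3 FPKM in treated libraries (log2 change -0.87 ± 0.30, unadjusted p = 0.021, adjusted p = 0.461, limma). MRPL11 was at 23.0, 36.0 and 27.5 FPKM and 36.9, 48.9 and 41.9 FPKM (log2 change 0.56 ± 0.20, unadjusted p = 0.0224, adjusted p = 0.474). Both pairs of groups were apart, as were those of MRPL35, whereas groups that do not overlap were found for 6.23% of all genes upward and 8.16% downward. MRPL12 had 145 to 622 reads per library and MRPL11 849 to 2039.

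The next genes by p did not reach an unadjusted p of 0.05. MRPL1, of the stalk at which tRNAs leave, was at 4.07, 9.51 and 7.04 FPKM against 9.90, 13.7 and 7.63 FPKM (log2 change 0.56 ± 0.29), with overlapping groups. MRPL52, MRPL32 and MRPL58 had log2 changes of 0.26 ± 0.17, 0.32 ± 0.22 and 0.25 ± 0.18. On the lower side were MRPL30, MRPL53, MRPL35 and MRPL23, with log2 changes of -0.31 ± 0.18, -0.43 ± 0.25, -0.22 ± 0.15 and -0.25 ± 0.19.

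Libraries of replicate numbers 1 and 2 deviated together in COV434, and the members made this plain for replicate 1. In replicate 1 the median member lay 0.28 below the mean of its group on the log2 scale in the untreated and 0.30 below in the treated library. In 63 of 78 members (80.8%) replicate 1 was the lowest library of both groups, against 23.3% of all genes of at least 1 FPKM. The same libraries had the highest share of mitochondrially encoded reads of their groups, 9.63% and 13.5%, where the other COV434 libraries had 7.71% to 8.74%, and what part this played was not tested. In KGN the medians lay between -0.06 and 0.06.

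**Figure D5:**
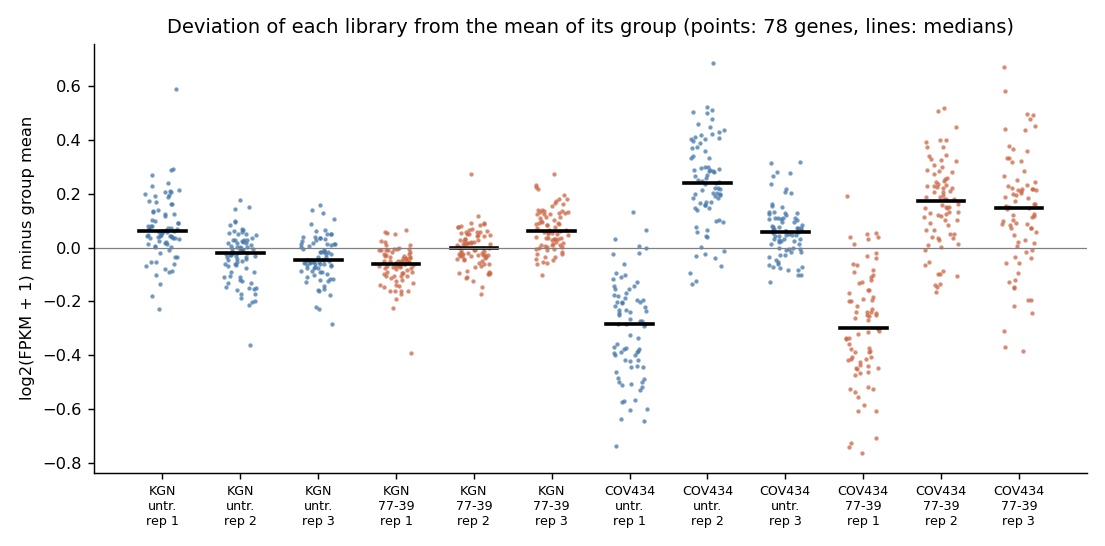
Deviation of log2(FPKM + 1) from the mean of its group for the 78 genes in each library, blue untreated and orange 77-39, with black lines for the median. Replicate 1 of both COV434 groups lies about 0.3 below its group mean, and the medians of the KGN libraries lie between -0.06 and 0.06.

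With the replicate number as a block, 0 members were called in COV434, where 0.721% of all genes were, and 7 members had an unadjusted p < 0.05, against 14.4% of all genes. These were MRPL11, MRPL1, MRPL32 and MRPS14 on the higher and MRPL12, MRPL16 and MRPL30 on the lower side. MRPL11 had an adjusted p of 0.0861 and MRPL12 one of 0.126 in that fit. Leaving out replicate 1 of both groups also gave 0 calls.

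Whether the response differed between the lines was tested as the interaction of line and treatment over all 12 libraries. No member was called (limma, smallest adjusted p = 0.124), where 3.6% of the 13127 genes tested were, and 2 members, MRPL11 and MRPS34, passed an unadjusted p < 0.05, where 18.0% of all genes did. The KGN change minus the COV434 change was -0.66 ± 0.21 for MRPL11 (adjusted p = 0.124) and -0.50 ± 0.21 for MRPS34 (adjusted p = 0.237). The difference was negative in 61 of 77 members, with a median of -0.14 against 0.01 over all genes, but single members did not reach the threshold. Without COV434 untreated replicate 1 it was negative in 42 of 77 members, with a median of -0.05 and one of 0.04 in the small subunit, and without COV434 treated replicate 1 the median was -0.31. On the positive side MRPL12, MRPL19 and MRPS15 had the smallest p, with differences of 0.57 ± 0.36, 0.28 ± 0.21 and 0.23 ± 0.19.

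The answer depended on the COV434 libraries. With the replicate number as a block MRPL11 was called (adjusted p = 0.0276), where 4.28% of all genes were. Under that block 17 members had a lower KGN response and 0 a higher one at an unadjusted p < 0.05, where 11.7% of all genes had a lower one. Without both COV434 replicate 1 libraries, 7 members were called, all with a lower value in the KGN response: MRPL11, MRPL24, MRPL36, MRPL49, MRPS11, MRPS14 and MRPS28, with differences of -0.41 to -0.67, where 15.2% of all genes were called. Without COV434 treated replicate 1 alone, MRPL36, MRPL49 and MRPS11 were called, where 7.41% of all genes were, and without COV434 untreated replicate 2 only MRPL11, where 3.05% were. A call of a member in KGN and not in COV434 is thus not by itself a difference between the lines.

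Members were also compared between the lines before treatment. Of 77 tested, 31 were lower and 6 higher in the libraries labelled KGN (limma, adjusted p < 0.05). Of all 13098 genes tested, 36.4% were lower and 32.6% higher. The share of members that were lower was near that of all genes and so is no result about the members. The share that were higher was below that of all genes. The balance of directions depended on the scaling: after quantile normalization 21 were lower and 17 higher, the median log2 difference of the large subunit genes went from -0.17 to 0.10, and that of the small subunit genes from -0.46 to -0.12. The 6 lower members with the smallest p, MRPS30, MRPS18A, MRPL37, MRPS18B, MRPL36 and MRPS27, were lower and called under each of the 10 other settings tried, whereas the median of the large subunit genes kept no direction.

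MRPS30 and MRPS18A, the large subunit proteins with small subunit names, had the smallest p. MRPS30 was at 9.65, 10.8 and 10.5 FPKM in the libraries labelled KGN and 45.5, 44.8 and 46.3 FPKM in those labelled COV434 (log2 difference -2.04 ± 0.08, adjusted p = 1.41e-06). MRPS18A was at 11.3, 10.7 and 10.1 against 39.6, 51.1 and 41.7 FPKM (log2 difference -1.94 ± 0.12). MRPL36 was at 21.6, 17.0 and 19.4 against 66.6, 87.4 and 80.1 FPKM, and MRPL37 at 50.6, 56.2 and 52.5 against 186, 154 and 169.4 FPKM. MRPS18B and MRPS27 had log2 differences of -1.32 ± 0.09 and -0.89 ± 0.08. All of these groups were widely apart.

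The members that were higher in the libraries labelled KGN were MRPL35, MRPL38, MRPS28, MRPL1, MRPL42 and MRPS31, by 0.49 to 0.96 on the log2 scale (adjusted p of 0.000984 to 0.0207). MRPL35 was at 14.6, 13.0 and 14.7 against 7.19, 9.22 and 7.56 FPKM. MRPS28 was at 9.05, 7.70 and 6.43 against 2.69, 4.40 and 4.70 FPKM. MRPS31 has pseudogenes that held reads equal to 12.2% of its own over all libraries, the highest share of any member, which makes its level less certain. MRPL45 came next, at 8.08%.

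Genes that work with the mitochondrial ribosome were followed as lists. With 77-39, 8 of 27 assembly factors were lower and 2 higher in the libraries labelled KGN, where 16.4% of all genes were lower and 17.6% higher. RCC1L, an assembly factor with an RCC1-like fold, fell from 17.9 ± 0.725 to 14.1 ± 0.217 FPKM. TFB1M, which methylates the small rRNA, fell from 7.53 ± 0.307 to 5.93 ± 0.273 FPKM, and DHX30, an RNA helicase of the mitochondrial RNA granules, from 23.1 ± 1.47 to 18.9 ± 0.231 FPKM. NGRN and FASTKD2, which are needed for the large rRNA, rose from 6.91 ± 0.453 to 9.18 ± 0.441 and from 5.35 ± 0.094 to 6.25 ± 0.301 FPKM.

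Of 17 translation factors and mRNA partners, 2 were lower and 4 higher, counts near the 16.4% and 17.6% of all genes and so no result about the list. TUFM, the elongation factor that brings tRNAs to the ribosome, fell from 97.6 ± 4.02 to 76.6 ± 1.21 FPKM, and MRRF, the recycling factor, from 4.01 ± 0.068 to 3.47 ± 0.09 FPKM. LRPPRC, which stabilises mitochondrial mRNAs, rose from 36.7 ± 1.84 to 49.0 ± 2.04 FPKM, GUF1 from 11.0 ± 0.213 to 14.7 ± 0.636 FPKM and GFM1, an elongation factor, from 7.20 ± 0.12 to 8.22 ± 0.071 FPKM.

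Of 17 genes for mitochondrial DNA and RNA synthesis and processing, 4 were lower and 2 higher, which is also near those shares of all genes. MGME1, a nuclease of mitochondrial DNA, fell from 19.3 ± 0.185 to 12.3 ± 0.088 FPKM, ELAC2, which cuts tRNA ends, from 14.1 ± 0.41 to 11.2 ± 0.552 FPKM and POLRMT, the mitochondrial RNA polymerase, from 17.6 ± 0.671 to 14.8 ± 0.457 FPKM. SUPV3L1 and PNPT1, which degrade mitochondrial RNA together, rose from 8.80 ± 0.126 to 10.5 ± 0.104 and from 9.57 ± 0.575 to 11.5 ± 0.414 FPKM. Of 8 regulators tested, YY1 (12.1 ± 0.227 to 10.2 ± 0.414 FPKM) and ESRRA (12.8 ± 0.748 to 10.9 ± 0.743 FPKM) fell and GABPA (13.0 ± 0.818 to 14.9 ± 0.22 FPKM) rose. With the replicate number as a block, 1 regulator was lower and 0 were higher. Of 5 ribosomal subunits not named MRP, PTCD3 fell from 10.8 ± 0.186 to 9.30 ± 0.316 FPKM and DAP3, CHCHD1, AURKAIP1 and GADD45GIP1 were not called. Both lists are small, and counts this few beside 16.4% of all genes lower and 17.6% higher are no result about them.

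Of the 15 mitochondrially encoded partners, 6 were higher and 1 lower in the libraries labelled KGN, where 17.6% of all genes were higher and 16.4% lower. With the replicate number as a block, 2 were higher and 1 lower. MT-RNR2, the large rRNA onto which the MRPL proteins assemble, rose from 6996, 7224 and 6811 FPKM to 9762, 9726 and 10628 FPKM (log2 change 0.52 ± 0.11, adjusted p = 0.0116, limma). MT-RNR1, the small rRNA, was at 858 ± 133 and 951 ± 261 FPKM and was not called (adjusted p = 0.655). MT-ND6 and MT-ND2, subunits of complex I, rose from 3070 ± 56.3 to 5285 ± 387 and from 2238 ± 257 to 3468 ± 388 FPKM, and MT-CO3, of complex IV, fell from 7850 ± 415 to 4843 ± 559 FPKM. Levels of rRNA depend on how well it was carried through the library preparation. In the libraries labelled COV434 no gene of any of these lists was called (limma), and 3 genes had an unadjusted p < 0.05 there. At that threshold 3.52% of all genes were higher and 4.49% lower, so these 3 are no result about the lists. MT-RNR2 was at 6889, 5707 and 5170 FPKM in untreated and 13651, 6983 and 6035 FPKM in treated libraries labelled COV434, with replicate 1 the highest of both groups.

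Promoter sequences were available for 69 of the 78 members (RefSeq, GRCh38.p14, 250 bases before to 50 bases after the start). They were searched on both strands for the letters of binding motifs known from nuclear genes for mitochondrial proteins: GCGCATGCG for NRF1, CCGGAAGT for GABP and other ETS factors, and AAGATGGCG for YY1, none of which overlaps another. The NRF1 letters matched 3 members (4.35%) and 1.92% of all 35116 promoters, the ETS letters 11 members (15.9%) and 4.14% of all, and the YY1 letters 13 members (18.8%) and 1.75% of all. Any of them was found in 34.8% of the members and 7.33% of all promoters. Among members called lower in KGN, 6 of 17 held one, and among those without a call 17 of 50. These are letter matches and not binding sites.

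The stretch of 150 bases before the RefSeq start is shown for the members called lower in the libraries labelled KGN that had a match wholly within it, with matched letters in capitals. MRPS34 holds the ETS letters on the opposite strand, MRPL36 the YY1 letters on the opposite strand, and MRPL17 the NRF1 letters at 2 places, of which one reads the same on both strands and so was matched on both. The GENCODE 29 genes begin further upstream, so parts of these stretches are transcribed by that annotation. The positions are chr16:1773135-1773284, chr5:1799838-1799987 and chr11:6683341-6683490, all on the minus strand of GRCh38.p14.
MRPS34: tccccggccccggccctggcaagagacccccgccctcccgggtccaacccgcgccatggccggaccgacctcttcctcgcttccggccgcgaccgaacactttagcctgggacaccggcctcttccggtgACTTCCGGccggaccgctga
MRPL36: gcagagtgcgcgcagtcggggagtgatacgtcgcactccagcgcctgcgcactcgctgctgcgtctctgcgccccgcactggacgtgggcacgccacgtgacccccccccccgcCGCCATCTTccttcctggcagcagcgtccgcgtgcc
MRPL17: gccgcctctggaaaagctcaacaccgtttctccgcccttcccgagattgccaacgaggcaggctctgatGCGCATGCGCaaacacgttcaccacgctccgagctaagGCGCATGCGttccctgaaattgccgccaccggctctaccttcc
MRPS34 fell by 0.69, MRPL36 by 0.31 and MRPL17 by 0.31 on the log2 scale in the libraries labelled KGN, where the members that rose were MRPS10, which held the YY1 letters, and MRPS15, which held none of these letters.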

How the data were processed

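RNA-seq was analysed in 12 libraries of 2 cell lines, 3 per group. The authors deposited 1 table of FPKM per gene, and HISAT2 2.0.5 is named in the submitters' processing notes. The notes list mouse builds, but coordinates of all 58735 genes matched GENCODE 29 (GRCh38). The counter and strand setting are not given in the sources used here. FPKM steps gave whole reads for 100% of values (tolerance 0.05), which set the depth of 15547851 to 18280415 reads per library. At the highest and lowest depth, 3 reads on a gene of 1 kb are worth 0.152 and 0.2 FPKM, which covers counting error only.

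Genes averaging 1 FPKM or more over the libraries fitted were tested on log2(FPKM + 1) with limma 3.58.1 (lmFit, eBayes with trend, R 4.3.3), two-sided, with Benjamini-Hochberg adjustment over all genes tested and calls at adjusted p < 0.05. Fold changes on this scale understate those of low genes. Fits were made within each line, for the interaction of line and treatment, and between untreated lines. Alternatives were the pseudocount, the filter, other scalings, a replicate block, gene length and GC trends, voom on recovered reads, 1 fit of all libraries and each library left out. Leaving out both COV434 replicate 1 libraries was added after seeing the data. Same-numbered libraries correlated in their deviations by 0.4, 0.474 and 0.166 in COV434 and by -0.016, -0.018 and -0.019 in KGN. In COV434 untreated replicate 3 correlated with treated replicate 2 by 0.154, nearly as much as with treated replicate 3. Numbers 1 and 2 thus went together in COV434, whereas number 3 is not shown to pair its libraries. Deviations from a mean of 3 libraries also depend on each other, so the block in COV434 rests on incomplete pairing.

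The fits were tested on simulated data with the measured spread. A first version of that check, with smaller folds, did not meet its pass mark in COV434, where most such changes went uncalled. Larger folds were then added and the pass mark was set on these, so passing it says nothing about small changes in COV434, and an uncalled member there is not shown to be unchanged.

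Named in each comparison were the members with the smallest p per direction, up to 10 within a line and 6 otherwise, the highest and lowest members, and a fixed set by role. MRPS28, MRPS18C and MRPS14 were named after their values were seen. The members and lists were chosen with earlier results of these data known.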

Additional observations from a re-analysis of the deposited data

How the results depend on the processing

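In KGN, 24 members were called, with 1 in the fit of all 12 libraries, 14 with no filter, 12 with the GC trend removed and a replicate block, and 14 to 26 when 1 library was left out, 14 of them without treated replicate 2. Fits by pseudocount, scaling, gene length, GC alone, voom and replicate block gave 20 to 30. KGN numbers do not pair the libraries, and the block gave 20 calls. In COV434 every setting gave 0 calls, with 2 at an unadjusted p < 0.05, and the range over left-out libraries was 0 to 0. The interaction gave 0 calls, with 1 under the replicate block, 3 with the GC trend removed and the block, 7 without both COV434 replicate 1 libraries, 2 at an unadjusted p < 0.05 and 0 to 3 when 1 library was left out. Between untreated lines 37 members were called and 29 to 50 when 1 library was left out, the highest without COV434 untreated replicate 1. The cause of these shifts was not tested, except that leaving out libraries and fitting fewer or more genes or samples change the test itself.

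The median log2 change in KGN lay between -0.20 and -0.13 for large and between -0.14 and -0.08 for small subunit genes over 18 alternatives each. In COV434 it lay between -0.11 and 0.22 and between -0.09 and 0.16, and was negative in 3 of 19 for both subunits. Counting MRPS30 and MRPS18A with the large subunit moved no median by more than the spread between libraries. Of 204 values of named members in KGN, 18 fell short of the threshold and none changed sign. Of 180 in COV434 none crossed it, of 230 for the interaction 8 newly passed it, and of 192 between the lines 6 fell short. Depth limits MRPS24, MRPL38 and MRPL53 most.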
